A study of Mus musculus with 6 samples.

Results

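RNA expression of *Tm4sf1* and of 9 related membrane protein genes (*Tm4sf4*, *Tm4sf5*, *Cd9*, *Cd63*, *Cd81*, *Cd82*, *Cd151*, *Tspan6*, and *Tspan7*) was compared between WT and IG27 cells, on arrays that carried named probes for 22911 genes. The 10 genes were chosen by the high *Tm4sf1* signal in IG27 cells in this same comparison, and the others were added as its relatives, so their differences are described here without a test. Both cell types derive from OS3, an immortalized, male glial line from the brain of newborn C3H/HeN mice (C3H in the labels) that carries SV40. IG27 cells are OS3 cells transfected with a plasmid for the K27M mutant of histone H3.3 (OS3-H3F3A_K27M), and WT cells are OS3 cells that received the empty vector (OS3-vector). Clones were obtained by drug selection, and the labels do not say whether each group is 1 clone. Each group had 3 samples, all collected after 2 days of culture in the same medium with serum and insulin, and each was hybridized to 1 single-color Agilent mouse array. The labels do not say whether the 3 samples were separate cultures, so the spread between them may be technical.

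Tetraspanins are small proteins that span the membrane repeatedly and hold integrins, immunoglobulin-type proteins, and proteases together in membrane microdomains. They take part in adhesion, migration, and receptor trafficking, and *Cd9*, *Cd63*, and *Cd81* encode widely used markers of extracellular vesicles. Tm4sf1, Tm4sf4, and Tm4sf5 belong to the L6 family, which shares the membrane topology of tetraspanins but not their sequence, and Tm4sf1 is known as a surface antigen of endothelial and tumor cells that associates with migration.

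The sequences before the transcription starts of *Tm4sf1*, *Tspan7*, and *Cd82*, the members with the highest IG27 signal relative to WT, and of *Tspan6*, the member with the lowest, are printed here because the mutant histone acts on chromatin and CG content is a main feature of promoter chromatin. Each is the RefSeq sequence of assembly GRCm38.p6, 250 bases long, in the direction of transcription and ending at the base before the start, with CG dinucleotides in capitals. They lie at chr3:57301989-57302238 (minus strand) for *Tm4sf1*, chrX:10484866-10485115 (plus strand) for *Tspan7*, chr2:93462951-93463200 (minus strand, the first of 4 annotated starts) for *Cd82*, and chrX:133898430-133898679 (minus strand) for *Tspan6*.
Tm4sf1: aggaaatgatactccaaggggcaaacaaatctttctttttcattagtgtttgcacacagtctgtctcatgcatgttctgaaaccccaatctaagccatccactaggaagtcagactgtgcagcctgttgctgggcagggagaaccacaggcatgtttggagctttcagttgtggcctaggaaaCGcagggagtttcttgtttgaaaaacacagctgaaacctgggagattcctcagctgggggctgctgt
Tspan7: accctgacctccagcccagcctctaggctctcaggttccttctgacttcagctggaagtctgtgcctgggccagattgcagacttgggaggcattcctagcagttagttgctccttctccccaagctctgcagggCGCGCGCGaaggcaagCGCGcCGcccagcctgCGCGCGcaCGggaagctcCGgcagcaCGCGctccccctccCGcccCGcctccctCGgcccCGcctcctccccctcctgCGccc
Cd82: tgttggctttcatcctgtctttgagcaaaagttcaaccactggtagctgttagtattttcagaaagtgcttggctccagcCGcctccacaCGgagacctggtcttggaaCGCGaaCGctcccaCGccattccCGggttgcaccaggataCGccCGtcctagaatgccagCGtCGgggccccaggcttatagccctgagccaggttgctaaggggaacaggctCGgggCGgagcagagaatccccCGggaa
Tspan6: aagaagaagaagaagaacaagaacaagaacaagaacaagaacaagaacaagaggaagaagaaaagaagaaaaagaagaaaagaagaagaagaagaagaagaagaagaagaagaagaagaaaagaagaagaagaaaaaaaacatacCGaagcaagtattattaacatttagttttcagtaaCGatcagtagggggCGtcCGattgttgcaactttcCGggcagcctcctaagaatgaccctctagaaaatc

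The 4 windows differed in base composition. The *Tm4sf1* window held 1 CG and was 48.0% G or C, and 18.8% of the windows of this length at all 32851 annotated starts held as few. The *Tspan7* window held 19 CG and was 69.2% G or C, and 19.7% of all windows held as many or more. *Cd82* held 14 at the printed start (12, 11, and 3 at its other starts) and *Tspan6* 5, against a median of 6 over all starts. The pair of members with the largest differences thus had start regions of low (*Tm4sf1*) and high (*Tspan7*) CG count. The GC box letters GGGCGG, searched on both strands and overlapping the CG count, were present at 6 of the 14 annotated starts of the 10 members (in 5 genes, *Tspan7* and *Cd82* among them and *Tm4sf1* and *Tspan6* not), and at 32.7% of all starts. No methylation or binding was measured in these samples, so these letters are a description only.

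The arrays were comparable in signal. Of 56605 probes that are not controls, 58.8% to 61.2% were called well above background by the scanner software on each of the 5 arrays with complete output, and the number of arrays limits the precision. IG27 replicate 2 has no such calls, since its scanner output stops after 285 of 62976 spots, and its values come from the deposited value table. Values are given as log2 processed signal minus the 75th percentile of the array, and differences as IG27 minus WT on this scale. The 3 probes of *H3f3a*, the gene in the plasmid, gave differences of 0.17, −0.26, and −0.20, and the sources used here do not say whether they detect the plasmid transcript. Over the 14899 genes tested, the median difference was −0.07. With the median of each array as the scale in place of the 75th percentile, that median was −0.31 and the share of higher genes among those called went from 43.3% to 27.6%, so small differences depend on the scale.

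*Tm4sf1* showed the largest difference of the 10 members. Its level was −4.43, −4.57, and −4.48 in the WT samples and 5.63, 5.68, and 5.71 in the IG27 samples. The groups were far apart, at −4.49 ± 0.07 and 5.67 ± 0.04 (SD, n = 3 each), with a difference of 10.17 (SE 0.05) or 1151-fold. In processed signal, the WT samples read 49.6, 44.0, and 44.2, and the IG27 samples 54402, 58207, and 52157. The probe was well above background in all 3 WT samples, although dim there. For scale, the *Cd36* probe, not well above background in any sample with such a call, read 4.83, 4.96, and 4.27 in WT. *Tm4sf1* ranked 6 of 14899 genes by the size of its difference, for which it was chosen. The difference was 9.17 after normexp background correction, the lowest of the alternatives tried. This correction adds an offset of 50 to every signal, which by itself shrinks differences from dim signals.

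The L6 relatives of *Tm4sf1* did not share this difference. *Tm4sf4*, whose product is expressed in liver and intestine and which lies next to *Tm4sf1* on chromosome 3, was at −4.81, −4.63, and −5.04 in WT and −4.74, −4.74, and −4.56 in IG27. Its groups overlapped, and the difference of 0.15 (SE 0.12) became −0.09 with median scaling and −0.12 with quantile normalization. *Tm4sf5*, a relative linked to hepatocyte and epithelial cell growth, was at −2.71, −2.62, and −3.40 in WT and −2.69, −3.01, and −3.32 in IG27. These groups also overlapped (−0.10, SE 0.25). *Tm4sf19* and *Tm4sf20*, the other L6 genes on the array, were not well above background in any sample with such a call.

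*Tspan7*, an X-linked tetraspanin of neurons and other brain cells, had the next largest difference of the 10. It was at −5.25, −5.43, and −5.18 in WT and at 3.10, 3.11, and 3.07 in IG27, or 28.1, 24.2, and 27.2 against 9400, 9775, and 8363 in processed signal. All 3 IG27 samples lay far above all WT samples, with a difference of 8.38 (SE 0.07), or 333-fold. Its rank by size was 34. After normexp correction the difference was 6.93.

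*Cd82*, a tetraspanin known as a suppressor of metastasis that restrains cell motility, was the third member that was several-fold higher in IG27 cells. Its brightest probe was at −1.29, −1.24, and −1.09 in WT and 2.42, 2.32, and 2.30 in IG27, without overlap. The difference was 3.55 (SE 0.07), or 11.7-fold. The array carried 3 further *Cd82* probes, and they differed by 3.56, 3.55, and 3.55. All 4 probes thus gave nearly the same difference, although 1 of them was not well above background in WT, so that its value reads as at least 11.7-fold higher.

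*Cd151*, which binds laminin-binding integrins and stabilizes adhesion, was at 3.90, 3.95, and 3.99 in WT and 5.15, 4.97, and 5.02 in IG27. Its groups did not overlap, and IG27 cells were 1.10 (SE 0.06) or 2.15-fold higher. *Tspan6*, an X-linked tetraspanin that regulates innate immune signaling and endosomal sorting, went the other way. It was at 3.65, 3.61, and 3.74 in WT and 2.08, 2.04, and 1.72 in IG27. The difference was −1.72 (SE 0.11), with WT 3.29-fold above IG27 and no overlap. The pair of X-linked members therefore moved in opposite directions, while the median difference of the 513 tested X-linked genes was −0.59.

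The 3 vesicle marker genes each differed by less than 2-fold. *Cd9*, which also acts in cell fusion and adhesion, was at 5.65, 5.65, and 5.69 in WT and 5.20, 5.04, and 5.01 in IG27. Its groups did not overlap, and the difference was −0.58 (SE 0.06), or 1.50-fold lower in IG27. *Cd63*, a tetraspanin of late endosomes and lysosomes, was at 6.83, 6.83, and 6.85 in WT and 6.91, 6.77, and 6.78 in IG27. The WT range lay inside the IG27 range, and the difference of −0.02 (SE 0.06) was −0.26 with median scaling and 0.03 with quantile normalization. *Cd81*, a partner of EWI proteins, was at 6.64, 6.37, and 6.36 in WT and 6.78, 6.73, and 6.62 in IG27 with its brighter probe, for a difference of 0.25 (SE 0.09) with overlapping groups. Its dimmer probe differed by 0.35 without overlap, and the difference of the brighter probe was 0.01 with median scaling.

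**Figure D1:**
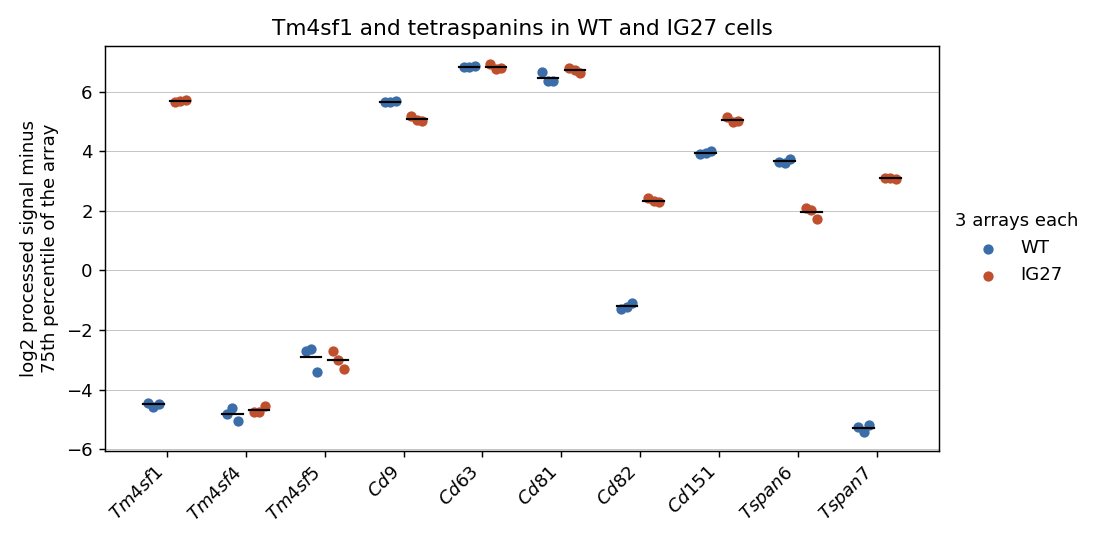
Levels of the 10 members in each sample, as log2 processed signal minus the 75th percentile of the array (vertical axis), with WT in blue, IG27 in red, and a black line at the mean of each group of 3. *Tm4sf1* and *Tspan7* go from −4.43 or below in every WT sample to 3.07 or above in every IG27 sample, *Cd82* crosses 0, and *Tm4sf4*, *Tm4sf5*, *Cd63*, and *Cd81* overlap. Levels of different genes come from different probes and are not to be ranked.

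The plot of levels by sample shows the 10 members side by side. As a description only, since the same values led to their choice, the fit over all genes put 5 members higher (*Tm4sf1*, *Tspan7*, *Cd82*, *Cd151*, and *Cd81*) and 2 lower (*Cd9* and *Tspan6*) in IG27 cells at an adjusted p of 0.05, beside 30.5% of all genes tested that were called higher, 40% called lower, and 70.5% called in either direction. Nothing about the members is read from these counts. The groups did not overlap for 6 of the 10 members, beside 75.7% of all genes tested. At least 2-fold differences were seen for 4 members above WT and 1 below, beside 1706 genes called above and 1739 called below of the 14899 tested. The median difference of the members was 0.20, beside −0.07 over all genes. All 10 members had a probe well above background on every array with such calls, and none was removed by the filter on dim probes.

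**Figure D2:**
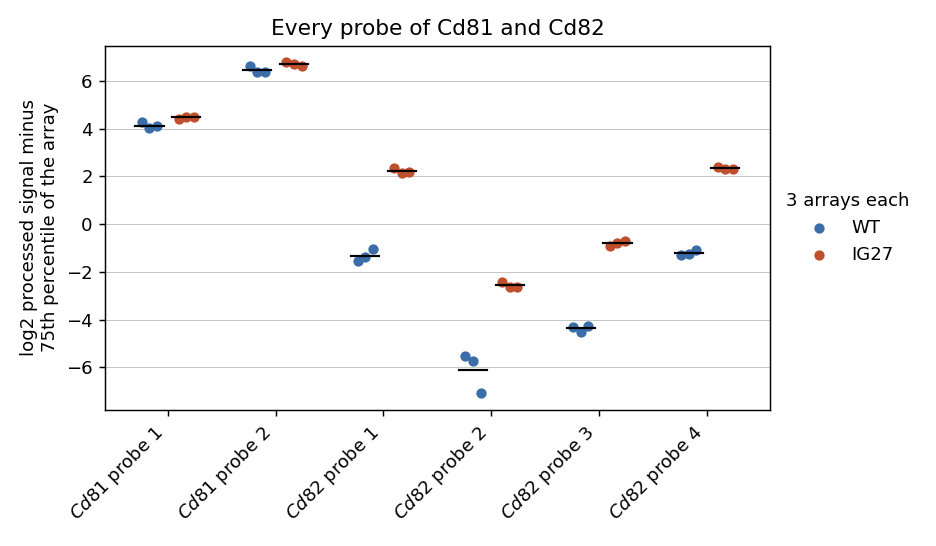
Every probe of *Cd81* and *Cd82*, the members with more than 1 probe, in the same units and colors, with a black line at the mean of each group of 3 samples. The 4 *Cd82* probes sit at different levels and each is higher in the 3 IG27 samples, by 3.55 to 3.56, whereas the *Cd81* probes differ by 0.25 and 0.35.

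The slide position of the arrays was not balanced, as row 1 held WT replicates 1 and 3 alone and row 2 held the remaining WT array together with the IG27 arrays. Within row 2 (WT replicate 2 against 3 IG27 samples, the same values as with slide row as a block), *Tm4sf1* differed by 10.24, *Tspan7* by 8.52, *Cd82* by 3.59, *Cd151* by 1.10, *Cd81* by 0.34, *Cd9* by −0.57, and *Tspan6* by −1.66. These 7 members kept their direction against this single WT sample. *Cd63* (−0.01), *Tm4sf4* (−0.05), and *Tm4sf5* (−0.39) were at or below 0.

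The remaining tetraspanins went in both directions. Of 24 further tetraspanin genes, 17 were tested, and 5 rose, 8 fell, and 4 did not pass the test (76.5% called, beside 70.5% of all genes), with a median difference of −0.16. *Cd53*, *Tspan1*, *Tspan8*, *Tspan10*, *Tspan11*, *Upk1b*, and *Prph2* did not pass the filter on dim probes. Among the tetraspanins that rose, *Tspan12*, a coreceptor of Norrin and Frizzled signaling, was at 0.69, 0.50, and 0.62 in WT and 1.97, 1.98, and 2.06 in IG27. Its difference was 1.40 (SE 0.06, limma adjusted p = 5.97e-06). *Tspan13* rose by 1.42 (SE 0.07, limma adjusted p = 6.31e-06), from −0.53, −0.70, and −0.53 to 0.89, 0.80, and 0.82.

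*Tspan15* is a member of the TspanC8 subfamily, which carries the protease ADAM10 to the cell surface. It rose by 1.27 (SE 0.05, limma adjusted p = 3.85e-06), from −0.50, −0.41, and −0.45 in WT to 0.75, 0.85, and 0.85 in IG27. *Tspan17*, of the same subfamily, fell by 1.24 on the log2 scale (SE 0.06, limma adjusted p = 5.16e-06), from 4.05, 4.01, and 3.96 to 2.85, 2.72, and 2.74. Over the 5 tested TspanC8 genes, 1 rose, 3 fell, and *Tspan5* did not pass (−0.16, limma adjusted p = 0.0658), so that 80% were called, beside 70.5% of all genes. The *Tspan5* call depended on the processing: its difference was −0.40 with median scaling (limma adjusted p = 0.00620) and −0.01 with quantile normalization, and it passed with a variance trend in eBayes (limma adjusted p = 0.0385).

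*Tspan18*, which lies near *Cd82* on chromosome 2 and regulates calcium entry in endothelial cells, fell the most of the further tetraspanins, by 1.74 on the log2 scale (SE 0.05, limma adjusted p = 6.07e-07). It was at 4.03, 4.10, and 4.07 in WT and 2.30, 2.35, and 2.33 in IG27. *Rom1*, known from the rims of photoreceptor discs, fell by 1.03 on the log2 scale (SE 0.07, limma adjusted p = 2.38e-05). *Cd37* (0.19, limma adjusted p = 0.0869), *Tspan32* (0.30, limma adjusted p = 0.0975), and *Tspan31* (0.06, limma adjusted p = 0.897) did not pass. Without WT replicate 2, *Cd37* passed (0.25, limma adjusted p = 0.0418), and without WT replicate 1, *Tspan32* did (0.41, limma adjusted p = 0.0320). For *Tspan31*, WT replicate 1 was at 2.51 while the other WT samples were at 3.91 and 4.04. Without that sample the difference was −0.43 (limma adjusted p = 0.00420), and the gene's other probe differed by −0.41.

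The partners of tetraspanins also changed in both directions. Of 18 partner genes in the list, 16 were tested, and 5 rose, 9 fell, and 2 did not pass (87.5% called, beside 70.5% of all genes, of which 30.5% were higher and 40% lower), with a median difference of −0.46, beside −0.07 over all genes. *Cd36* and *Mmp14* were not well above background in any sample with such a call. *Ptgfrn*, an EWI protein that binds CD9 and CD81, was at −3.80, −3.77, and −3.96 in WT and 3.23, 3.27, and 3.23 in IG27. It rose by 7.09 (SE 0.06, limma adjusted p = 4.84e-08), or 136-fold, while its tetraspanin partners *Cd9* and *Cd81* differed by −0.58 and 0.25. *Epcam*, an epithelial adhesion protein of tetraspanin microdomains, was not well above background in WT and was at −1.79, −1.91, and −1.78 in IG27, at least 30.5-fold higher (limma adjusted p = 7.66e-06). After normexp correction, *Ptgfrn* differed by 6.38 and *Epcam* by 2.70 on the log2 scale. That *Epcam* value is less than 30.5-fold. The offset of 50 in this correction by itself shrinks differences from dim signals, so the bound stands for the uncorrected signal only.

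Integrin chains of the partner list, among them the laminin-binding ones that pair with CD151, moved in both directions, and only *Itga6* rose. *Itga6* was at 2.91, 2.85, and 2.92 in WT and 5.09, 4.98, and 5.02 in IG27, and rose by 2.14 (SE 0.05, limma adjusted p = 4.87e-07). *Itga3* was at 1.52, 1.47, and 1.53 in WT and −1.66, −1.64, and −1.61 in IG27, and fell by 3.14 on the log2 scale (SE 0.04, limma adjusted p = 9.87e-08). Its dimmer probe, not well above background in IG27, was at least 2.26-fold lower, and the mean of the probes differed by −2.16. *Itgb1*, the beta chain that pairs with both, fell by 0.84 on the log2 scale (limma adjusted p = 1.90e-05). The remaining integrin chains of the list also fell, *Itga7* by 0.51 (limma adjusted p = 0.000103) and *Itgb4* by 0.60 (limma adjusted p = 0.000137) on the log2 scale. The groups did not overlap for any of these integrin genes.

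*Adam10*, the sheddase that TspanC8 proteins escort, was at 5.65, 5.73, and 5.81 in WT and 3.71, 3.64, and 3.60 in IG27, and fell by 2.08 on the log2 scale (SE 0.06, limma adjusted p = 9.77e-07). *Hbegf*, a growth factor precursor that associates with CD9, fell by 1.66 on the log2 scale (SE 0.10, limma adjusted p = 2.23e-05), from 4.08, 3.81, and 3.77 to 2.21, 2.12, and 2.35. *Igsf3*, which encodes an immunoglobulin-type protein, was at 2.04 ± 0.11 in WT and 2.16 ± 0.11 in IG27 (SD, n = 3 each) and did not pass (0.12, limma adjusted p = 0.235). It passed with quantile normalization (0.24, limma adjusted p = 0.0287) and with the mean of its probes (0.19, limma adjusted p = 0.0226), its other probe differing by 0.27 without overlap, and was at −0.12 with median scaling.

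**Figure D3:**
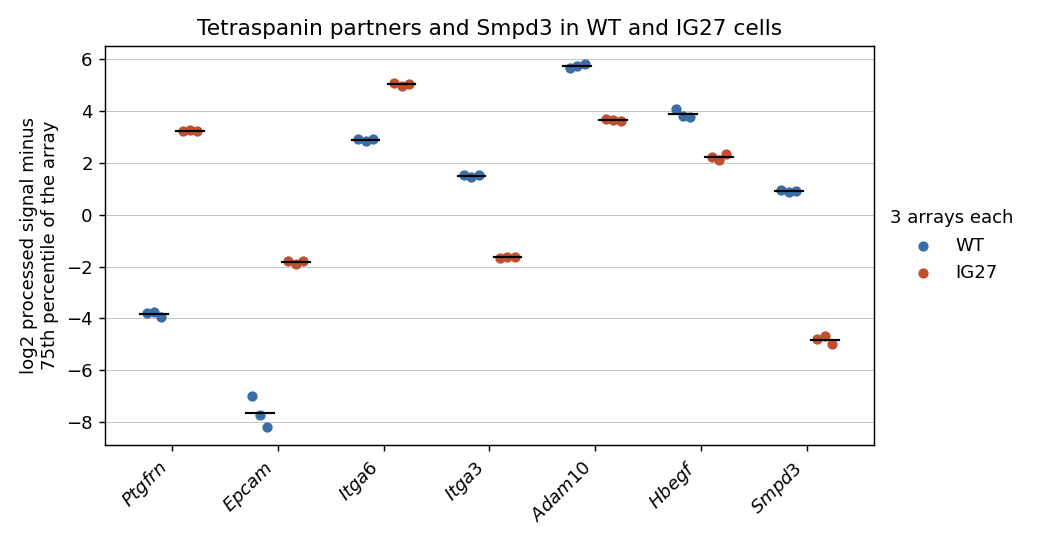
Levels of 6 tetraspanin partner genes and of *Smpd3* in each sample, in log2 processed signal minus the 75th percentile of the array, with WT in blue, IG27 in red, and a black line at the mean of each group of 3. *Ptgfrn*, *Epcam*, and *Itga6* are higher in every IG27 sample than in any WT sample, and *Itga3*, *Adam10*, *Hbegf*, and *Smpd3* are lower in every IG27 sample. The WT points of *Epcam* are not well above background.

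Genes of extracellular vesicle formation, the process that *Cd9*, *Cd63*, and *Cd81* mark, changed in both directions. Of 17 genes, 15 were tested, and 3 rose, 9 fell, and 3 did not pass (80% called, beside 70.5% of all genes, of which 30.5% were higher and 40% lower), with a median difference of −0.23, beside −0.07 over all genes. *Smpd3*, the neutral sphingomyelinase that supports exosome budding, was at 0.94, 0.88, and 0.92 in WT and −4.78, −4.69, and −4.98 in IG27. It fell by 5.73 on the log2 scale (SE 0.08, limma adjusted p = 9.87e-08), with WT 53.2-fold above IG27. Its other probe, well above background in 1 of 2 IG27 samples with such a call, differed by −4.55, or 23.4-fold, and the difference of the brighter probe was −4.63 after normexp correction. *Sdcbp*, the syntenin adaptor that binds CD63, rose by 0.87 (SE 0.05, limma adjusted p = 1.87e-05). *Vps4a*, an ATPase of membrane scission, fell by 0.89 on the log2 scale (SE 0.09, limma adjusted p = 0.000238). The split of the vesicle genes was 2 higher and 11 lower with median scaling (median −0.47), 3 and 7 with quantile normalization (median −0.08), and 3 and 7 with slide row as a block (median −0.26). *Rab27a* and *Rab27b* were not well above background in any sample with such a call.

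**Figure D4:**
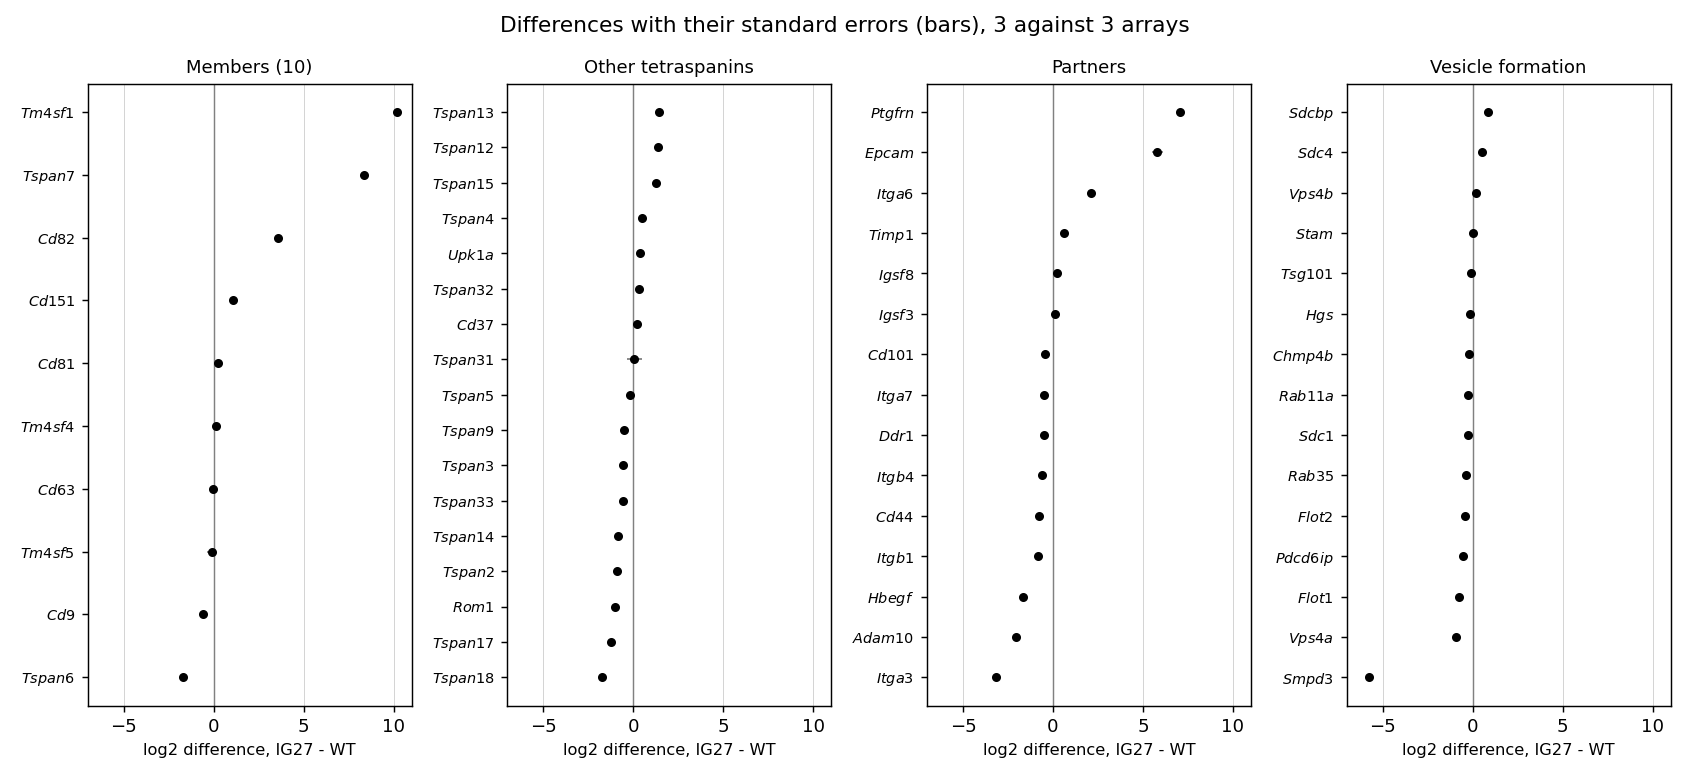
Difference IG27 minus WT (horizontal axis, log2 scale) for the 10 members and for the tested genes of the further tetraspanins, the partners (15 of 16 drawn), and vesicle formation, with SE as bars, most of which are smaller than the points. Members run from −1.72 (*Tspan6*) to 10.17 (*Tm4sf1*), the further tetraspanins from −1.74 to 1.42, the partners from −3.14 to 7.09, and vesicle formation from −5.73 to 0.87. *Epcam* is drawn at the difference of its measured means, 5.81, and its bound without normexp correction is 30.5-fold.

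Plotted as differences, *Tm4sf1*, *Tspan7*, and *Cd82* lie beyond the range of the 17 further tetraspanins, which runs from −1.74 to 1.42. *Tm4sf1*, an L6 gene, was chosen for its large difference, so its place there follows from that choice. *Cd151*, *Cd81*, *Cd63*, and *Cd9* lie within it, as does *Tspan6* at −1.72.

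Profiles over the 6 samples were compared with that of *Tm4sf1* by Euclidean distance of the values minus the WT mean. Only the 13538 other genes well above background on every array with such calls were ranked. Genes not well above background in WT, such as *Kdr* (difference 9.27), could not enter. Within this set, the nearest were *Adgrf3* (distance 2.18), *Klk9* (2.20), *Tspan7* (3.10), *S100a6* (3.84), and *S100a11* (3.85). Their differences were 8.95, 8.92, 8.38, 7.96, and 7.96. This measure follows the size of the difference. *Tspan7* was the only member among these 5.

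The nearest named genes on the chromosome were examined for *Tm4sf1*, *Tspan7*, and *Cd82*, after the values of the members were seen. Next to *Tm4sf1*, *Tm4sf4* differed by 0.15, and the gene beyond it, *Wwtr1*, a Hippo pathway coactivator, rose by 0.83 (limma adjusted p = 0.00219). On the other side, *4933417G07Rik* fell by 0.32 on the log2 scale (limma adjusted p = 0.00179), and the nearest gene on the array was not well above background. Near *Tspan7*, *Rpgr* rose by 0.63 (limma adjusted p = 0.00025) and *Mid1ip1* by 0.40 (limma adjusted p = 0.000452). *Otc* and *H2al1a* there were not well above background in any sample with such a call. Near *Cd82*, *Alx4*, a homeobox gene, was not well above background in WT and was at least 66.6-fold higher in IG27 (limma adjusted p = 1.60e-07), whereas *Tspan18* fell.

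Marker genes of the labeled cell type and of others were measured beside the members. The counts of rising and falling markers, for this and the other lists below, stand beside 30.5% of all genes tested called higher and 40% called lower. Of 15 glial markers, 12 were well above background on every array with such calls. Of the 15, 7 rose, 5 fell, and 3 did not pass (80% called, beside 70.5% of all genes). The summed level of the list (processed signal over the 75th percentile) was 341 to 358 in WT and 276 to 290 in IG27. Such sums are linear and follow the brightest probes, among them *Gfap* here (−1.07 for its brighter probe, 0.19 for its other) and *Kdr* in the endothelial list. *S100b* rose by 4.93 (limma adjusted p = 1.48e-07), *Pdgfra* by 2.36 (limma adjusted p = 1.60e-07), and *Slc1a3* was at least 40.8-fold higher (limma adjusted p = 1.79e-07). *Tm4sf1* is also known from endothelium, and 4 of 10 endothelial markers were tested. *Kdr* was at least 268-fold higher (limma adjusted p = 9.88e-08) and *Flt1* at least 60.7-fold higher (limma adjusted p = 3.46e-06), both from WT levels not well above background, and *Vwf* rose by 1.46. *Pecam1* fell by 0.27 on the log2 scale, *Esam* was not tested, being well above background in 2 of 3 WT samples and in no IG27 sample with such a call (at least 2.79-fold lower), and *Cdh5*, *Tek*, *Tie1*, *Cldn5*, and *Emcn* were not well above background in any sample with such a call. The summed endothelial level was 0.308 to 0.343 in WT and 3.59 to 3.63 in IG27.

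*Tspan7* is also known from neurons. Of 8 neuronal markers, 5 were tested, 1 rose, 2 fell, and *Rbfox3*, *Syt1*, and *Nefl* were not well above background in any sample with such a call. *Map2* rose (limma adjusted p = 6.29e-07), with a difference of 8.03 for its brighter probe, which was well above background in 1 of 3 WT samples, of 5.91 after normexp correction, and of at least 14.0-fold for its other probe. *Tubb3* fell by 2.63 on the log2 scale (limma adjusted p = 4.14e-07), and *Stmn2* was at least 18.0-fold lower (limma adjusted p = 2.03e-06). The summed level was 17.7 to 20.1 in WT and 10.1 to 11.1 in IG27. Of 8 epithelial markers, among which *Cdh1*, *Krt8*, *Krt18*, *Krt19*, and *Cldn4* were not well above background in any sample with such a call, 3 were tested and 1 fell, with sums of 0.233 to 0.263 in WT and 0.203 to 0.229 in IG27. Of 8 fibroblast markers, 2 rose (*Dcn* at least 6.45-fold, limma adjusted p = 1.92e-05) and 3 fell, with sums of 190 to 194 in WT and 145 to 152 in IG27, and of 10 leukocyte markers 3 rose and 3 fell, with *Ptprc*, *Lyz2*, and *Tyrobp* not well above background in any sample with such a call. After normexp correction, the differences of *Kdr*, *Flt1*, *Slc1a3*, *Dcn*, and *Stmn2* were smaller, at 5.69, 3.84, 3.10, 1.06, and −1.90. Each falls short of the bound given above, and the offset of 50 by itself lowers differences from such dim signals. The correction therefore cannot test these bounds, which stand for the uncorrected signal only. The part of these marker changes in the members' differences was not tested. In bulk samples, fewer cells of a type and less RNA per cell cannot be told apart.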

How the data were processed

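Cy3-labeled RNA of 3 WT and 3 IG27 samples was measured on Agilent single-color mouse arrays, all on 1 slide. The deposited intensity is the processed signal of each spot on a linear scale, which the authors obtained with Agilent Feature Extraction (version 10.7.3.1 per the file headers, and 9.1 in the submitters' processing notes). The deposited value table holds the same processed signal per probe, and it gave the values of IG27 replicate 2. Its columns for WT replicates 2 and 3 held each other's scanner values (56305 single-spot probes, relative tolerance 1e-04), and the scanner labels were used.

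On the arrays with complete scanner output, spots with an outlier flag were left out and spots of a probe were averaged on the log scale. The table values of IG27 replicate 2 were used as deposited, without removal of outlier spots. For every array, log2 intensities were centered on its 75th percentile. Probes were named through RefSeq accessions with a table of assembly GRCm38.p6 (32994 of 56605 probes). A gene was tested when a probe was well above background on every array with such calls of at least 1 group, and its brightest such probe stood for it. The comparison was fitted over all genes in R 4.3.3 with limma 3.58.1 (eBayes after lmFit, a two-sided test with Benjamini-Hochberg adjustment) at a threshold of 0.05, and tested on simulated data. SE and adjusted p are from this fit. Where a group was not well above background on any array, the fold is given as "at least". It compares the mean of the brighter group with a floored mean of the dimmer group, on the log2 scale. Each array of the dimmer group gave the higher of its lowest signal well above background and the probe's own signal. That floor is the lowest of all probes on the array, so the bound is not strict. It holds for the processed signal only. Normexp correction, which adds an offset of 50, gave smaller differences for several of these genes.

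The members and lists were chosen with earlier results of these data known. Named genes were all members, the called genes of the tetraspanin and partner lists with differences of at least 1 and groups that do not overlap, the genes of these lists not called (1 partner gene is counted but not reported here by name), the 3 largest differences of the vesicle list, marker genes called with differences of at least 2, and the 5 profiles nearest to *Tm4sf1*. *Itga7*, *Itgb1*, *Itgb4*, *Gfap*, *Vwf*, *Pecam1*, and the neighbors were added after their values were seen. The alternatives were other arrays, scaling, background correction, filters, probe rules, variance models, blocks, a threshold of 0.05 without adjustment, and each array left out. Samples with the same replicate number did not deviate together (r = 0.01, 0.04, and 0.08), so the numbers were not taken as pairs.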

Additional observations from a re-analysis of the deposited data

How the results depend on the processing

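The member differences kept their sign over 17 alternatives for *Tm4sf1* (9.17 to 10.24), *Tspan7* (6.93 to 8.52), *Cd82* (3.31 to 3.61), *Cd151* (0.86 to 1.24), *Cd81* (0.01 to 0.34), *Cd9* (−0.82 to −0.47), and *Tspan6* (−1.96 to −1.58), and changed sign for *Cd63* (−0.26 to 0.03), *Tm4sf4* (−0.12 to 0.25), and *Tm4sf5* (−0.39 to 0.06). Genes called over all genes ranged from 8947 (slide row as a block) to 10983 (median scaling), and 15260 probes were called with every probe by itself. With every probe by itself, 22 of 25 partner probes and 19 of 26 vesicle probes were called, since more features were tested. *Igsf8* went from 0.23 to −0.013 with median scaling. *Tspan31* went from 0.06 to a range of −0.43 to 0.34 when each sample was left out, and among these was below 0 only without WT replicate 1. It was also below 0 with median scaling (−0.18), the mean of its probes (−0.18), and slide row as a block (−0.36). With the main fit included, 15 of its values were above 0 and 4 below. Median scaling gave 4 tetraspanins higher and 9 lower, and 4 partners higher and 9 lower. The replicate block called 10310 genes, 15 tetraspanins, 14 partners, and 11 vesicle genes. Normexp correction could be run only on the processed signal, with an offset of 50. Dim WT signals of *Tm4sf1* and *Tspan7* limit how precisely their folds are known.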
